A study of Mus musculus with 50 samples.

Results

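H3K27ac peaks found only in Ezh2 R685C mouse embryonic stem cells (ESCs) were the 15217 peaks of this line's list that shared no base with a peak of the H3K27ac lists of Ezh2 KO, Ezh1/2 dKO or Ezh2 Y726D, nor with a peak of SUZ12, a core subunit of Polycomb repressive complex 2 (PRC2), in wild-type (WT) ESCs. They made up 36.9% of the 41185 H3K27ac peaks of Ezh2 R685C and were taken from 125115 H3K27ac peaks in the 4 lists. The members were thus chosen by the H3K27ac peak calls themselves, and their strength and their absence from the other lists are given as a description. All lines derive from the ESC line E14TG2a and were grown on gelatin with LIF, serum and inhibitors of GSK3β and MEK. In Ezh2 KO the gene for EZH2, the main PRC2 methyltransferase, was excised, and in Ezh1/2 dKO its paralog Ezh1 was excised as well. Ezh2 Y726D and Ezh2 R685C carry point mutations of EZH2 that were edited into Ezh1 KO cells, so both of these lines also lack Ezh1. HA ChIP-seq was from Ezh1/2 dKO cells transfected with human HA-tagged EZH1, with untransfected Ezh1/2 dKO cells as its control. Each H3K27ac list came from 1 library of 1 line, which leaves no replicate to compare, and the lines were screened as clones. WT H3K27ac was not analysed here, so whether the members are peaks in WT ESCs was not tested. RNA-seq had 2 libraries each of WT, Ezh2 Y726D, Ezh2 KO and Ezh1/2 dKO, and none of Ezh2 R685C was analysed here.

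H3K27ac marks active promoters and enhancers and is placed on the same lysine that PRC2 methylates, so that 1 histone tail carries either acetylation or methylation at this site. PRC2 places H3K27me3 at repressed developmental genes, H3K27me2 broadly across the rest of the silent genome and H3K27me1 mainly along transcribed genes. The paper reported that EZH2 Y726D is catalytically inactive, while R685C restored H3K27me2 more than H3K27me3 in western blots. A peak is a region where the caller MACS2 found more reads than in its local background, and its −log10 p gives how far it stood out in its own library. All 10 ESC markers tested had 2 to 6 H3K27ac peaks of Ezh2 R685C within 5 kb of a transcription start site (TSS), with a top −log10 p between 26.8 at Klf4 and 136.5 at Pou5f1, and none of 9 markers of primitive endoderm or fibroblasts had one.

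The sequences around the summits of the 5 strongest members that lie in introns or between genes show what these regions look like. Each line gives the nearest protein-coding gene, the mm9 position of a window centred on the summit and its plus strand read 5′ to 3′, and no searched motif occurs in these windows.
Msln, chr17:25893411-25893511: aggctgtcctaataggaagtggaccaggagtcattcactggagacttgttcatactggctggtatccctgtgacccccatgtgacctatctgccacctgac
F2rl1, chr13:96338625-96338725: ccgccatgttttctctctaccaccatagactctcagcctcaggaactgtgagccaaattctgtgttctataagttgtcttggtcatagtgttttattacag
Osbpl10, chr9:114952389-114952489: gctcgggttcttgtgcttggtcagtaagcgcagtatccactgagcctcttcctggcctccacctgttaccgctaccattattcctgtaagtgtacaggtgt
Pid1, chr1:83840687-83840787: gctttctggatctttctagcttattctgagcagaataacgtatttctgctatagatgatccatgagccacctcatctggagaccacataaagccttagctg
Ifit1, chr19:34731290-34731390: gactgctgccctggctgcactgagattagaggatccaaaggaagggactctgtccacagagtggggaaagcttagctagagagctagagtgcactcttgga
The 3 strongest members that hold the POU octamer, the site bound by OCT4 and its relatives, in the same window are shown for the motif comparison further on. Capitals mark the octamer, which lies on the minus strand in these windows, and, near Cst13, also the TEAD motif GGAATG.
Epb4.1l2, chr10:25351847-25351947: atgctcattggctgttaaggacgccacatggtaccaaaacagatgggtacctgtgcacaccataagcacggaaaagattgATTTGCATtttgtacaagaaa
Prex1, chr2:166263760-166263860: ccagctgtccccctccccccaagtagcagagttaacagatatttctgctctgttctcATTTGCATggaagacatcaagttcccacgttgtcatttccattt
Cst13, chr2:148651538-148651638: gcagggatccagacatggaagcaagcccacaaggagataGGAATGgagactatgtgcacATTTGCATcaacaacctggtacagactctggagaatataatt

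The members were mostly weak and narrow peaks. Their −log10 p had a median of 12.6 and a highest value of 62.0, against a threshold of 10 for the whole list. Their median fold enrichment over background was 5.73 and their median width was 474 bp, with a widest peak of 6264 bp. The other 25591 peaks of Ezh2 R685C outside WT SUZ12 peaks had a median −log10 p of 23.1 and a median width of 1209 bp. Of the peaks with a −log10 p from 10 to 12, 69.1% (95% CI 68.1 to 70.1) were found only in Ezh2 R685C, against 1.98% (1.72 to 2.29) of those at 30 or above. CIs are Wilson intervals for counting error only, and neighbouring peaks are not independent. The list of Ezh2 R685C was also the longest, with 41185 peaks over 49.9 Mb, against 40829 peaks and 35.0 Mb in Ezh2 Y726D, 25483 and 20.5 Mb in Ezh2 KO, and 17618 and 11.5 Mb in Ezh1/2 dKO. List length does not measure the total H3K27ac of a line. By western blot the paper reported a smaller rise of total H3K27ac in Ezh2 R685C than in Ezh2 KO. The reads behind each list are not in the files, so how far depth set these lengths was not tested.

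**Figure D1:**
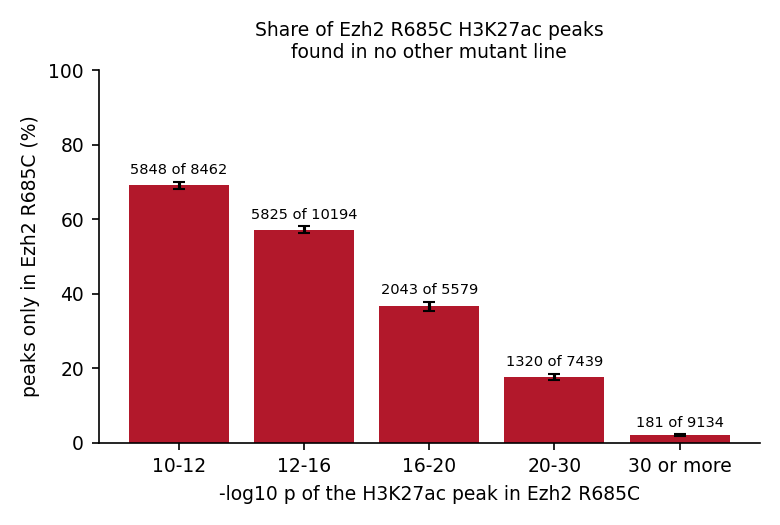
Share of H3K27ac peaks of Ezh2 R685C outside WT SUZ12 peaks that were found in no other mutant line (y axis, percent, bars with Wilson 95% CI), by the −log10 p of the peak (x axis). The share goes from 69.1% in the weakest class to 1.98% in the strongest, with the number of peaks above each bar.

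The same rule applied to the other lists gave 9527 peaks only in Ezh2 Y726D (23.3% of that list), 703 only in Ezh2 KO (2.76%) and 380 only in Ezh1/2 dKO (2.16%). The Ezh2 Y726D-only peaks are the nearest counterpart of the members, since they come from a list of like length in the same Ezh1 KO background and had a like median −log10 p of 12.2. Members often lay beside acetylated sites of the other lines. The median distance from a member to the nearest H3K27ac peak of another line was 2416 bp, and 33.5% of members lay less than 1 kb from one. At the edge of the rule, members near Ksr1, Slc35e1 and 1110034B05Rik lay 0, 1 and 2 bp from a peak of another line with a −log10 p of 10.3, 14.3 and 14.1. Peaks near Anp32a and Rab6b with a −log10 p of 16 and 17.4 were left out for an overlap of 1 and 3 bp.

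Members lay in introns more often than other acetylated sites. The summit was intronic in 44.5% of members (CI 43.7 to 45.3), against 37.0%, 31.2% and 23.4% of the Ezh2 R685C peaks shared with 1, 2 and 3 lines and 36.8% of the Ezh2 Y726D-only peaks. Summits within 1 kb of a TSS made up 15.4% of members and 43.3% of the peaks shared with all 3 lines, and intergenic summits made up 36.1% and 30.8%. Of the members, 39.6% (38.8 to 40.4) came within 5 kb of a TSS, against 58.9% of peaks shared with 3 lines and 35.2% of Ezh2 Y726D-only peaks. Peaks of like strength gave the same order for introns: 47.9% of members and 38.7% of shared peaks with a −log10 p from 10 to 12 were intronic, and 37.9% against 29.8% of those from 20 to 30.

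**Figure D2:**
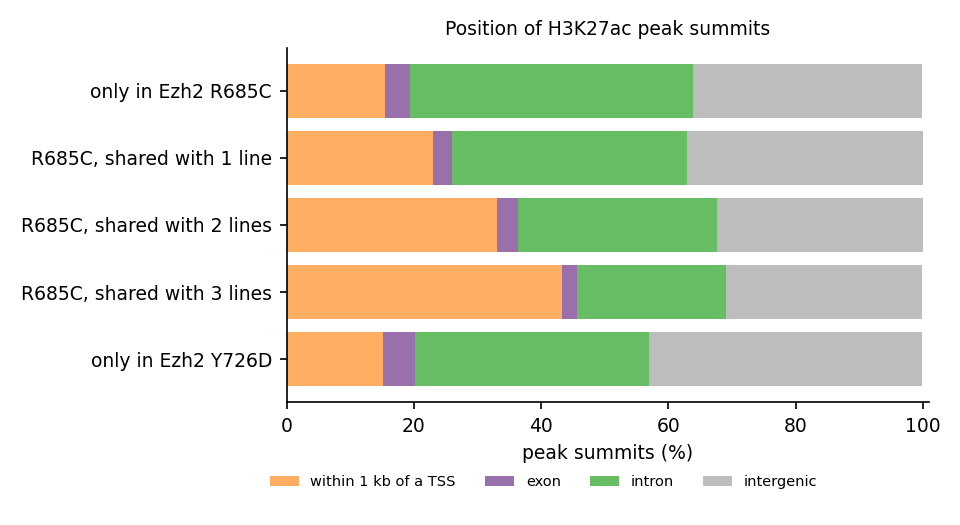
Position of peak summits (x axis, percent of summits) for H3K27ac peaks only in Ezh2 R685C, Ezh2 R685C peaks shared with 1, 2 or 3 other lines, and peaks only in Ezh2 Y726D. The intronic part is largest in the members at 44.5%, and the part within 1 kb of a TSS grows from 15.4% in the members to 43.3% in peaks shared with 3 lines.

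Members lay in H3K27me1 regions of WT ESCs, a readout that the choice of peaks did not use, more often than either comparison group. WT H3K27me1 regions covered 14.7% of the genome and held the summits of 56.7% of members (55.9 to 57.5). They held the summits of 40.6%, 29.3% and 19.1% of the Ezh2 R685C peaks shared with 1, 2 and 3 lines, and of 18.3% (17.6 to 19.1) of the Ezh2 Y726D-only peaks. The share in members stayed between 54.5% and 57.9% in all 5 classes of strength, while that of shared peaks fell from 35.8% to 19.2% between the weakest and the strongest class. With the whole peak in place of the summit, 68.0% of members met a WT H3K27me1 region, against 59.0% of the shared peaks and 24.5% of the Ezh2 Y726D-only peaks. The shared peaks were the wider ones, as given above.

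WT H3K27me2 gave the opposite order for the peaks of single lines. It covered 13.4% of the genome, with chromosomes 8 and Y absent from its list, and held the summits of 27.9% of members (27.2 to 28.6) and 61.2% (60.2 to 62.2) of the Ezh2 Y726D-only peaks. All shared Ezh2 R685C peaks together had a lower share than the members, 24.4%, with 32.8%, 26.7% and 15.8% of those shared with 1, 2 and 3 lines. At like strength this order turned, and the members had the lower share, 33.6% against 53.6% for a −log10 p from 10 to 12 and 15.6% against 20.8% from 20 to 30, but not at 30 or above (9.66% of 181 members against 6.83%). Taking both marks by whole peaks, 41.6% of members met WT H3K27me1 alone and 10.5% met WT H3K27me2 alone, whereas 5.06% and 50.5% of the Ezh2 Y726D-only peaks did. Both marks were met by 27.5% of members and 20.1% of Ezh2 Y726D-only peaks, and neither by 20.4% and 24.3%.

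**Figure D3:**
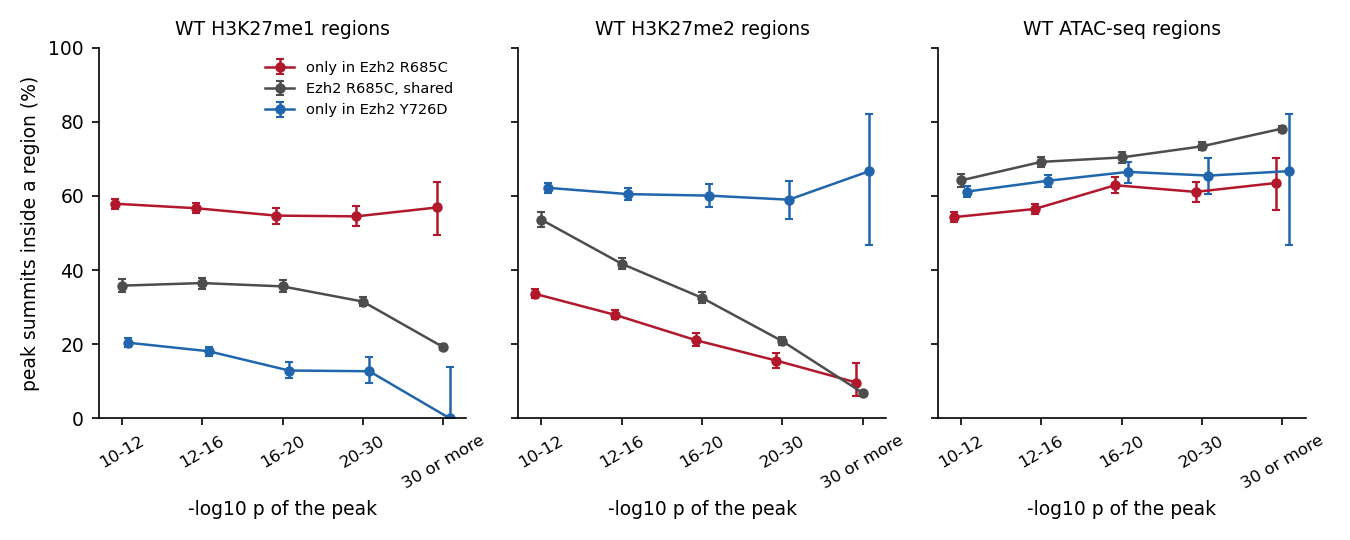
Percent of peak summits inside WT H3K27me1, WT H3K27me2 and WT ATAC-seq regions (y axis, points with Wilson 95% CI) by the −log10 p of the peak (x axis), for peaks only in Ezh2 R685C, shared Ezh2 R685C peaks and peaks only in Ezh2 Y726D. Members sit at 54.5% to 57.9% for WT H3K27me1 in every class, above both other groups, and below the Ezh2 Y726D-only peaks for WT H3K27me2.

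Regions listed for methylation marks in the mutant lines met the members as follows. H3K27me1 regions of Ezh2 KO, which cover 18.8% of the genome, met 2.28% of members and 25.9% of Ezh2 Y726D-only peaks, and its H3K27me2 regions met 1.56% and 29.8%. The shared Ezh2 R685C peaks were also low in both, at 3.21% and 3.46%. The H3K27me1 lists of Ezh1/2 dKO and Ezh2 Y726D, which lack several chromosomes, met 14.6% and 29.2% of members, 21.5% and 50.1% of shared peaks and 20.2% and 42.2% of Ezh2 Y726D-only peaks on those listed. H3K27me2 regions of Ezh1/2 dKO and Ezh2 Y726D covered 24.1% and 23.7% of the genome, against 13.4% for those of WT. They met 39.6% and 41.1% of members, 51.5% and 56.6% of shared peaks and 42.4% and 52.5% of Ezh2 Y726D-only peaks. By western blot the paper reported that both lines lost H3K27me1, H3K27me2 and H3K27me3, while Ezh2 KO kept normal H3K27me1. In ChIP-seq scaled to spiked Drosophila chromatin, it reported loss of H3K27me2 within poorly expressed genes in both lines and in Ezh2 KO. By the same method it reported loss of H3K27me3 at Polycomb-bound sites in both lines. In Ezh2 KO it reported loss of H3K27me1 at highly transcribed genes. The lists carry no spike-in scaling, and whether the regions listed for these lines hold the marks was not tested. H3K27me3 of Ezh2 R685C itself met 20 of 15217 members (0.131%, CI 0.0851 to 0.203), 0.535% of shared peaks and 591 of 9527 Ezh2 Y726D-only peaks (6.20%). A SUZ12 peak of Ezh2 R685C met 0 of 15215 members, which allows a share of up to 0.0252% by the Wilson interval, 0.0117% of shared peaks and 28 of the Ezh2 Y726D-only peaks (0.294%). Because peaks on WT SUZ12 had been removed from both groups, low shares for SUZ12 and H3K27me3 follow in part from the rule. HA-tagged EZH1 peaks of transfected Ezh1/2 dKO cells met 0.315% of members, and HA control peaks of untransfected Ezh1/2 dKO cells met 0.256%.

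Most members lay in chromatin that was open in WT ESCs. A WT ATAC-seq region met 75.5% of members (74.8 to 76.2), where these regions cover 23.3% of the genome. The share was 79.1% for Ezh2 Y726D-only peaks and rose from 87.0% to 98.3% for Ezh2 R685C peaks shared with 1 to 3 lines. In the weakest class of peaks it was 69.1% for members and 80.4% for shared peaks, and from 20 to 30 it was 87.3% and 95.7%, so the members were less often in open regions also at like strength. These shares are for whole peaks, and the shared peaks were wider. By summits, WT ATAC-seq regions held 57.0% of members, 63.1% of Ezh2 Y726D-only peaks and 73.0% of shared peaks. The ATAC-seq regions of Ezh2 Y726D, Ezh2 KO and Ezh1/2 dKO met 73.0%, 72.5% and 74.3% of members. These broad ATAC-seq lists come from a permissive threshold, and ATAC-seq of Ezh2 R685C was not analysed here.

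Within gene bodies, members were denser in genes with higher RNA levels in WT ESCs. The 16341 protein-coding genes found in the RNA-seq table were split into 5 classes of equal size by their WT level, the mean normalized count per kb of exon. Members numbered 0.979 per Mb of gene body in the lowest class (251 members), 4.07, 11.7 and 21.3 in the next classes, and 29.5 in the highest (2445 members). The other Ezh2 R685C peaks followed the same course, from 2.36 to 58.8 per Mb. Ezh2 Y726D-only peaks did not: they numbered 3.14 per Mb in the lowest class, 8.13 in the second and 3.40 in the highest. Genes with a member in their body had a median WT level of 62.5 normalized counts per kb (quartiles 21.6 and 163, 4075 genes), those with an Ezh2 Y726D-only peak 11.4 (2.37 and 40.1, 2610 genes), and the median over all genes was 22.7. The medians for genes with a member were 57.7 in Ezh2 Y726D, 58.6 in Ezh1/2 dKO and 62.5 in Ezh2 KO. A peak in overlapping genes counted for each of them.

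**Figure D4:**
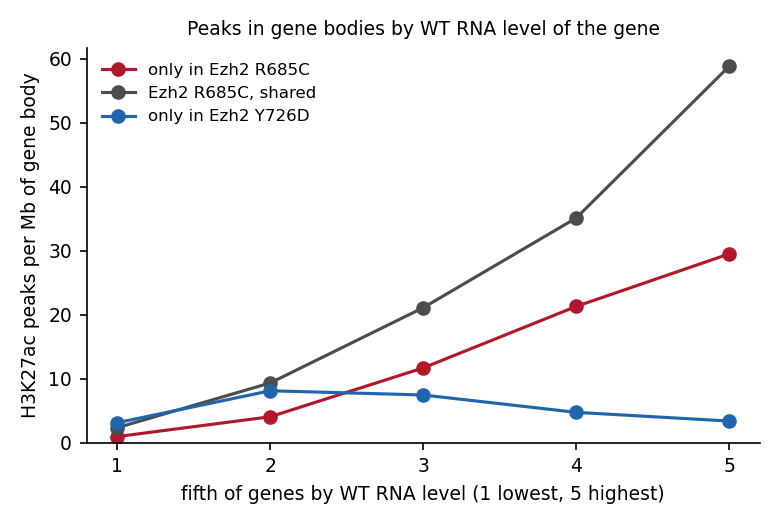
H3K27ac peaks per Mb of gene body (y axis) in 5 equal classes of protein-coding genes ranked by their WT RNA level per kb of exon (x axis, 1 lowest to 5 highest), for peaks only in Ezh2 R685C, shared Ezh2 R685C peaks and peaks only in Ezh2 Y726D. Members go from 0.979 to 29.5 per Mb, while Ezh2 Y726D-only peaks reach 8.13 in the second class and are at 3.40 in the highest.

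The sequence at the summits of members was poorer in G and C. The median GC content of 201 bp around the summit was 46.8% (quartiles 42.3 and 51.2), against 48.8%, 50.2% and 52.2% for peaks shared with 1, 2 and 3 lines and 52.2% for Ezh2 Y726D-only peaks. It was 44.8% to 46.8% in members and 50.2% to 50.7% in shared peaks across the classes of strength. Of 10 motifs searched on both strands in the same 201 bp, the POU octamer ATGCAAAT occurred in 1.14% of members (0.986 to 1.33), 0.750% of shared Ezh2 R685C peaks (0.652 to 0.864) and 0.577% of Ezh2 Y726D-only peaks (0.444 to 0.751). At like strength the octamer intervals did not overlap for a −log10 p from 12 to 16, with 1.41% of members (1.14 to 1.74) and 0.778% of shared peaks (0.557 to 1.09), but did in the other classes. The weakest class had 0.958% of members (0.738 to 1.24) and 0.842% of shared peaks (0.556 to 1.27). The interval of peaks shared with 2 lines (0.900%, 0.706 to 1.15) overlapped that of all members. The SOX motif CATTGTT occurred in 3.21% of members (2.94 to 3.51), 2.47% of shared peaks and 2.42% of Ezh2 Y726D-only peaks, and its interval for peaks shared with 1 line (2.66 to 3.39) overlapped that of the members. The ETS motif CCGGAAGT, which contains CpG, was found in 0.342% of members and 0.692% of shared peaks. The AP-1 motif TGANTCA was found in 6.64% of members and 5.92% of shared peaks, and the GATA motif AGATAAG in 2.67% and 2.18%. In the weakest class the shares were 0.359% and 0.268% for ETS, 6.89% and 6.69% for AP-1, and 2.89% and 2.37% for GATA. Their intervals overlapped there. For ETS, AP-1 and GATA, the intervals of peaks shared with 1 line also overlapped those of all members. Intervals for the MYC E-box (CACGTG) and the motifs of KLF (GGGTGTGG), STAT (TTCCNGGAA), ESRRB (TCAAGGTCA) and TEAD (GGAATG) overlapped between members and shared peaks. These matches describe letters only and were not adjusted for GC content.

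The strongest member lay at chr4:99236073-99238155 (−log10 p 62.0, fold 16.5), 86.5 kb upstream of Foxd3, a forkhead factor of the pluripotent epiblast, with its summit within 1 kb of the TSS of a non-coding transcript. The next lay at chr17:25890146-25895936, 2.19 kb upstream of Msln, which encodes the surface protein mesothelin, with a −log10 p of 56.3 over 5791 bp that also made it the second widest. It was followed by intergenic members 43.5 kb upstream of F2rl1, a protease-activated receptor (55.9), 24.0 kb upstream of Osbpl10, an oxysterol-binding protein (52.3), 332 kb downstream of the TSS of Pid1 (49.4) and 16 kb downstream of the TSS of Ifit1, an interferon-induced gene (48.1). Members 7 to 12 by strength lay near Nup155, 2410089E03Rik, Mllt4, Elk3, Rbms2 and Steap2 with a −log10 p from 48.0 to 43.1. All 12 met a WT H3K27me1 region, 11 met a WT ATAC-seq region, the exception being the one near Elk3, and 3 met WT H3K27me2. In WT, normalized counts of the genes nearest these members ranged from 18.7 and 15.4 for Foxd3, 38.7 and 23.1 for Msln and 26.7 and 33.7 for Elk3 to 474 and 370 for F2rl1 and 1445 and 1425 for Nup155, so strong members lay near weakly and strongly detected genes. The widest member covered 6264 bp of Etl4 at chr2:20629750-20636013 (−log10 p 27.9).

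At least 1 member lay in the body or within 5 kb of a TSS of 5335 protein-coding genes (24.2%), and at least 10 did in 80 genes. The gene models with most members were the 4435 kb read-through model Gm20388 with 52, Fgfr2 with 34, Etl4 with 31, Ptprg with 26 and Msi2 with 25. Fgfr2, an FGF receptor, spans 3009 kb in this annotation, which gives 1.13 members per 100 kb, and its body also held 23 Ezh2 Y726D-only peaks. Msi2, an RNA-binding protein of stem cells, held 5.86 members per 100 kb and 0 Ezh2 Y726D-only peaks, and Etl4 and Ptprg, a receptor tyrosine phosphatase, held 3.44 and 3.78 members per 100 kb and 1 Ezh2 Y726D-only peak each. Epha4, an ephrin receptor named here after its values were seen, held 21 members in 148 kb, or 14.2 per 100 kb, and 0 Ezh2 Y726D-only peaks. WT normalized counts were 600 and 791 for Epha4, 759 and 1245 for Msi2, and 24.0 and 12.5 for Fgfr2, so that the first of these were well detected and Fgfr2 was low.

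A member lay within 5 kb of a TSS in 4073 of 22089 protein-coding genes (18.4%), and 3171 of these genes also had another Ezh2 R685C H3K27ac peak in that window. Lists of regulators were read against this 18.4%. Of 19 genes of LIF, FGF and WNT signalling, 9 had a member (47.4%), as did 5 of 15 H3K27 enzymes and PRC2 subunits (33.3%), 4 of 11 formative and primed genes (36.4%) and 4 of 20 naive pluripotency genes. Any Ezh2 R685C peak lay in this window of 46.1% of all protein-coding genes and of 16, 13, 7 and 19 genes of these lists, so the first lists and the naive genes held many peaks of either kind. The lineage lists held a member at 1 of 9 primitive endoderm genes (Lama1), 1 of 11 neural (Tubb3), 1 of 10 trophectoderm (Tead4), 0 of 12 mesendoderm genes and 0 of 10 genes of the germline and the early cleavage embryo. In these 5 lists 1, 2, 1, 3 and 2 genes had any Ezh2 R685C peak in the window. Lama1 and Tubb3 were well detected in WT, with normalized counts of 283 and 421, and of 1235 and 464.

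In the signalling list, Socs3, the feedback inhibitor of LIF signalling, had 5 members around its TSS with a −log10 p from 10.2 to 13.6. Its kinase Jak1 had 1 at 167 bp from a TSS (17) and no shared peak within 5 kb. The ERK feedback genes Dusp6 and Spry2 had 1 each (13.6 and 12.2), and the WNT genes Axin2, Tcf7l1 and Ctnnb1 had 2, 1 and 1. Id2 and Id3, inhibitors of differentiation downstream of BMP, had 1 each (12.2 and 16). Among formative genes the ETS factors Etv4 and Etv5, targets of FGF signalling, had members of 24.5, and of 17.8 and 18.6, and Dnmt3a and Zic2 had members of 11.8 and 13.5. The members at Pou5f1, Tfcp2l1, Sall4 and Nr0b1, factors of naive pluripotency, were weak (10.5, 12.2, 14.5 and 17), and 1 to 4 shared peaks lay within 5 kb of each TSS. Of the chromatin genes, Hdac2, a deacetylase, had the strongest member (30.1, in an intron), followed by the demethylase Kdm6b (15.8 and 10.2) and the PRC2 genes Mtf2 (11.5) and Eed (10.1).

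RNA levels of genes near members could be compared between the other lines and WT. Ezh2 had 448 and 567 reads in the WT libraries, 473 and 548 in Ezh2 Y726D, 1 and 1 in Ezh2 KO and 1 and 2 in Ezh1/2 dKO, and Ezh1 had 170 and 392 reads in WT against 14 to 27 in the Ezh1/2 dKO and Ezh2 Y726D libraries. Of the 4073 genes with a member within 5 kb of a TSS, 3896 were in the table and 3772 passed the filter (mean normalized count of 5 or more). In WT these 3896 genes had a median level of 74.9 normalized counts per kb, against 22.7 over all genes. It was 68.6 for genes near other Ezh2 R685C peaks and no member, and 15.5 for genes near Ezh2 Y726D-only peaks. Genes of like WT level were not compared for RNA changes. Called genes had a Benjamini-Hochberg adjusted p from limma under 0.1 together with a log2 fold change of 1 or more in size. In Ezh1/2 dKO 4.02% of all 13872 genes tested were called, 3.63% higher and 0.389% lower, and 47 of the 3772 genes with a member were called (1.25%), 22 higher and 25 lower. In Ezh2 Y726D 2.72% of all genes were called, 1.66% higher and 1.06% lower, and 58 genes with a member were called (1.54%), 10 higher and 48 lower. In Ezh2 KO 0.404% of all genes were called, 0.0937% higher and 0.310% lower, and 3 genes with a member were called (0.0795%), 1 higher and 2 lower. The median log2 fold change of genes with a member was -0.09 in Ezh2 Y726D, -0.13 in Ezh1/2 dKO and -0.04 in Ezh2 KO, against -0.01, 0.01 and -0.01 over all genes. For the 793 genes with a member and no other Ezh2 R685C peak within 5 kb, these medians were -0.04, 0.02 and 0.01. Calls among these 793 genes were 6 higher and 11 lower in Ezh2 Y726D, 9 higher and 2 lower in Ezh1/2 dKO, and 0 in Ezh2 KO. Genes with an Ezh2 Y726D-only peak within 5 kb had 5.73% called in Ezh1/2 dKO, 5.31% higher, and 5.05% in Ezh2 Y726D, 4.31% higher. By the rule, members have no H3K27ac peak in these 3 lines, while Ezh2 Y726D-only peaks are acetylated in Ezh2 Y726D. The direction of the calls near either group may thus follow in part from the choice of peaks, which was not tested. All 3 comparisons share the 2 WT libraries, the labels do not say that the 2 libraries of a line came from separate cultures, and in bulk RNA fewer expressing cells and less RNA per cell cannot be told apart. The counts depended on single libraries. In Ezh2 KO 0 genes with a member were called by limma without WT replicate 1 or Ezh2 KO replicate 2, where 46 and 40 had an unadjusted p under 0.05 and the fold, and 22 without WT replicate 2, while edgeR called 2 and DESeq2 17 with all libraries. In Ezh2 Y726D the count ran from 29 without either Ezh1/2 dKO library to 116 without Ezh2 Y726D replicate 1. Without either Ezh1/2 dKO library, 0 genes with a member were called by limma in that line, where 102 and 75 had an unadjusted p under 0.05 and the fold, while edgeR and DESeq2 called 45 and 56 with all libraries.

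Meis2, a homeobox factor with 3 members at its TSSs and no shared peak, had WT normalized counts of 204 and 210, against 551 and 518 in Ezh2 KO. It rose by 1.36 ± 0.19 (SE, log2; adjusted p = 0.026, limma). Plagl1, an imprinted zinc finger gene, had WT counts of 227 and 187, against 23.0 and 33.9 in Ezh2 KO and 6.24 and 11.2 in Ezh2 Y726D, and it fell in both lines (log2 fold change -2.84, adjusted p = 0.022, and -4.46, adjusted p = 0.002, limma). Def6 fell in Ezh2 KO and Ezh1/2 dKO, by 2.04 and 2.08 on the log2 scale (adjusted p = 0.086 and 0.029, limma). The calls of these 3 genes in Ezh2 KO were lost when WT replicate 1 or Ezh2 KO replicate 2 was left out.

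Some markers of other cell types also had more reads in some of these lines. Thy1 had 8 and 5 reads in WT, 107 and 114 in Ezh1/2 dKO and 95 and 68 in Ezh2 Y726D, Sox7 had 3 and 4 in WT and 31 and 69 in Ezh1/2 dKO, and Gata4 had 2 and 5 in WT and 27 and 23 in Ezh1/2 dKO. Sox17 did not rise, with 0 and 3 reads in WT, 2 and 2 in Ezh1/2 dKO and 0 and 0 in Ezh2 Y726D. Lum had 0 and 0 in WT, 6 and 1 in Ezh1/2 dKO and 0 and 0 in Ezh2 Y726D. Over all 8 such markers in the table, reads ran from 0 to 114, and their part in the calls was not tested.

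In Ezh1/2 dKO, Aspa, an enzyme of acetylaspartate breakdown with 2 members, had normalized counts of 66.7 and 25 in WT and 317 and 418 in the mutant, and it rose by 3.12 ± 0.44 (SE, log2; adjusted p = 0.014, limma). Cidea, a lipid droplet protein, had 56.0 and 41.4 in WT, 246 and 297 in Ezh1/2 dKO and 140 and 195 in Ezh2 Y726D, and it rose in both lines (2.46 and 1.76 on the log2 scale, adjusted p = 0.026 and 0.078, limma). Hsd17b2, Samd9l and Ptpru were also called higher, with log2 fold changes of 3.17, 2.30 and 2.07, from 2 to 20 reads in the WT libraries. Accsl fell from 297 and 400 to 74.2 and 89.7, by 2.07 on the log2 scale (adjusted p = 0.007, limma), and Ina, Dlgap3 and BC024978 were called lower with -2.61, -2.34 and -1.69.

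In Ezh2 Y726D the largest falls included the Y-linked genes Uty and Eif2s3y, which are also the genes of the 2 members on chromosome Y. Uty had 270 and 495 reads in WT and 0 in both Ezh2 Y726D libraries, and Eif2s3y had 560 and 805 against 2 and 3. In Ezh1/2 dKO their normalized counts were 284 and 305, and 578 and 683, and in Ezh2 KO 470 and 400, and 701 and 704. P2rx3, an ATP-gated channel with 2 members, went from 791 and 763 to 30.3 and 6.71 (log2 fold change -5.65, adjusted p = 0.002, limma), and Serpinf1 from 443 and 287 to 10.7 and 0. Rhbg, an ammonium transporter with 7 members within 5 kb of a TSS, rose from 46.7 and 42.4 to 132 and 128 (1.52 ± 0.30 SE, log2; adjusted p = 0.046, limma). Tns1, Hormad2 and Psors1c2 were called higher with 1.88, 1.55 and 2.70.

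**Figure D5:**
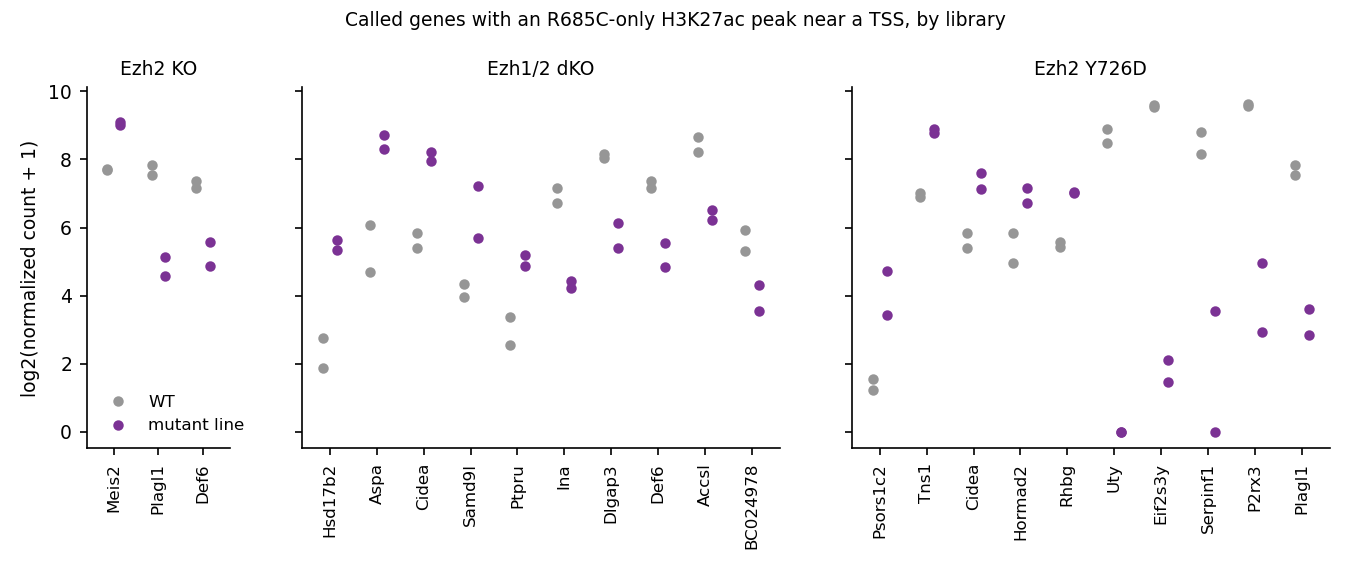
Log2 of the normalized count plus 1 (y axis) in each WT library and each library of the mutant line named above the panel, for called genes with an H3K27ac peak only in Ezh2 R685C within 5 kb of a TSS (x axis), up to 5 per direction and line. Both mutant libraries lie on the same side of both WT libraries for each gene, as at Meis2 with 551 and 518 against 204 and 210. The genes were called on these same libraries, so this separation follows largely from the choice.

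No listed gene with a member within 5 kb of a TSS was called by limma in the 3 lines. Etv4 and Socs3 differed widely between the libraries of 1 line, with normalized counts of 42.8 and 436 (Etv4) and of 127 and 1159 (Socs3) in Ezh2 Y726D. Among the genes nearest the strongest and widest members, Steap2, a metalloreductase, fell in Ezh2 Y726D from 432 and 322 to 206 and 135 (log2 fold change -1.15, adjusted p = 0.076, limma). Epha4 had 600 and 791 in WT and 1101 and 1108 in Ezh1/2 dKO (adjusted p = 0.11, limma), which missed the threshold.

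Members were spread over all chromosomes. They made up 34.4% to 39.6% of the Ezh2 R685C peaks on each autosome other than chromosome 12, 44.1% on chromosome 12 (645 of 1463, CI 41.6 to 46.6) and 47.5% on chromosome X (355 of 748, 43.9 to 51.0). On chromosome 12, 41.4% of Ezh2 R685C peaks were met by Ezh2 Y726D, against 56.8% elsewhere, while the shares met by Ezh2 KO and Ezh1/2 dKO were 44.6% and 29.7%, against 44.3% and 29.1%. Of the 9527 Ezh2 Y726D-only peaks, chromosome 12 held 104 and chromosome X 72, against 300 to 946 on each other autosome. On chromosome X all 3 lists met fewer peaks than elsewhere, 46.0% in Ezh2 Y726D, 32.8% in Ezh2 KO and 15.9% in Ezh1/2 dKO. With chromosomes 12 and X left out, 57.9% of member summits lay in WT H3K27me1 regions. A difference in copy number or depth between the lines was not tested.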

How the data were processed

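H3K27ac, H3K27me1, H3K27me2, H3K27me3, SUZ12 and HA ChIP-seq, ATAC-seq and RNA-seq files of mouse ESCs were used, with 1 library per line and ChIP or ATAC target. The authors aligned reads to mm9 with Bowtie, kept unique alignments, took out duplicate reads with PICARD and used MACS2 for peak calling. The deposited peak lists give the fold (ratio over local background) and the −log10 p of each peak, and the H3K27ac lists hold peaks with a p of at most 1e-10. Spike-in scaling leaves these lists unchanged. Broad regions of ATAC-seq, H3K27me1 and H3K27me2 were used as deposited, and HA peaks came as positions without values. RNA-seq reads were aligned by the authors with TopHat, counted per gene with HTSeq-count without strand and divided by DESeq2 size factors. The deposited values are a signal per gene and library, of which 100% were whole multiples (within 0.01) of the value of 1 read in their library. Libraries held 3604123 to 5181553 reads on genes. The authors' own comparisons with WT, which hold fold changes and p-values, were not used.

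Peaks on chromosomes 1 to 19, X and Y were compared with Python 3.11.15, numpy 2.4.6, pandas 2.3.3 and scipy 1.17.1. Overlaps needed 1 bp. Positions come from GENCODE vM1 on mm9 and sequences from the mm9 genome, read with pysam 0.24.0. Of 22089 protein-coding genes, 15597 were found in the RNA-seq table by symbol and 744 through a synonym. RNA-seq was tested with R 4.3.3 and limma 3.58.1 (trend) on log2 of the normalized count plus 1 in all 8 libraries, adjusted over 13872 genes. edgeR 4.0.16 (quasi-likelihood) and DESeq2 1.42.0 on the recovered reads, pseudocount, filters, scaling, a replicate block, windows, list thresholds and each library left out were alternatives. In data simulated for Ezh1/2 dKO versus WT on 13796 genes, limma called 200 of 200 genes changed 4-fold, with 7 other calls. The simulated spread between libraries was set in advance rather than taken from these data, and only well-detected genes were changed. The simulation therefore does not give the power of the test in the real libraries. Figures were drawn with matplotlib 3.10.9. The members and gene lists were chosen with earlier results of these data known. Named are the 12 strongest and 3 widest members with their nearest protein-coding TSS, the 5 genes with most members, genes of the fixed lists with a member within 5 kb of a TSS, and up to 5 called genes per line and direction. A few items that this rule selects are not reported here. WT H3K27ac was not analysed here.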

Additional observations from a re-analysis of the deposited data

How the results depend on the processing

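The number of peaks only in Ezh2 R685C depended on the lists. It was 15217 as given, 1501 for a p of at most 1e-20 in the Ezh2 R685C list, 10112 when a peak of another list within 1 kb also removed it and 3809 with the 4 lists brought to the length of the shortest. Under the same alternatives in the same order, the share within 5 kb of a TSS was 36.8%, 35.7% and 42.2%, the share in a WT ATAC-seq region 87.9%, 78.4% and 90.5%, and the share of summits in WT H3K27me1 regions 54.8%, 58.4% and 47.5%. The share near a TSS was 17.7% for a window of 1 kb and 34.8% for protein-coding TSSs. The ATAC-seq share was 61.8% for the strongest 50% of the WT regions and 72.5%, 74.3% and 73.0% for the regions of Ezh2 KO, of Ezh1/2 dKO and of Ezh2 Y726D. The alternatives for WT H3K27me1 were chosen after seeing the data, and gave 68.0% for whole peaks and 57.9% without chromosomes 12 and X. Leaving SUZ12 out of the rule gave 15252 peaks and moved no share beyond counting error. What moved these values was not tested beyond the construction of each alternative.

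Of genes with a member, limma called 3 for Ezh2 KO, 47 for Ezh1/2 dKO and 58 for Ezh2 Y726D. With peaks within 1 kb of a TSS these were 1, 24 and 31. DESeq2 called 17 in Ezh2 KO, and without a filter 38 were called in Ezh2 Y726D. With 1 library left out, so that a lone library was assumed to vary like the other groups, the counts ran from 0 to 22, 0 to 61 and 29 to 116. In Ezh2 KO, 0 were called without WT replicate 1 or Ezh2 KO replicate 2 (46 and 40 at an unadjusted p under 0.05 with the fold), 22 without WT replicate 2 and 6 without either Ezh2 Y726D library. In Ezh1/2 dKO, 0 were called without either of its own libraries. In Ezh2 Y726D, 116 were called without its replicate 1 and 29 without either Ezh1/2 dKO library. The other alternatives stayed within 1.5 times the counts given. Replicate numbers were not used as pairs, since deviations of same-numbered libraries correlated between -0.41 and 0.29 across lines. With a replicate block the counts were 2, 40 and 52.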

Other observations

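The 35 H3K27ac peaks that were in no other mutant line but lay on a WT SUZ12 peak fell outside the rule. The genes named here were chosen after their values were seen. The strongest lay at chrX:166423642-166424250 near the model Gm17379 (−log10 p 47.8), followed by one in an intron of Arhgap26 (35.4) and one 234 bp from a TSS of Etv5 (28.4). Etv4 had such a peak 72 bp from its TSS (17.6), beside the member upstream of it, and Spry4 was the nearest gene of an intergenic peak 16993 bp from its TSS (15). Cbx2, which encodes a PRC1 subunit, had a peak of 10.8. Spry4 had normalized counts of 217 and 80.9 in WT and 142 and 701 in Ezh2 Y726D, so its libraries overlapped between these groups. No test was made on these peaks.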
